A study of Drosophila melanogaster
Mus musculus with 6 samples.

Results

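The regions described here are the 10 kb bins of the mouse X chromosome in which dimethylation of histone H3 at lysine 36 (H3K36me2) reached at least 80 scaled reads in wild-type cells. They numbered 5060 of the 15539 X bins with signal (32.6%), and made up 2.03% of the 248945 bins of the whole data set. A scaled read is a sequencing read multiplied by 1 factor per library, as deposited. The bins were chosen by their wild-type H3K36me2, so that value, and the difference in H3K36me2 between the lines, are given below as description only. Trimethylation of lysine 27 (H3K27me3) played no part in the choice.

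The samples came from C3H10T1/2 cells, embryo-derived mesenchymal progenitors of C3H mice, at passage 10 to 15. One line (WT) stably expressed unmutated histone H3.1 with a FLAG-HA tag, and the other (K36M) stably expressed this tagged H3.1 with its lysine 36 changed to methionine. Each line gave 1 H3K36me2 and 1 H3K27me3 chromatin immunoprecipitation library, with Drosophila S2 chromatin added to every sample as an external reference. The labels name neither clones nor the sex of the line, and they mention no change to the cells' own histone genes. Having 1 library per mark and line, the design holds no replicates. Differences between the lines or between chromosomes therefore have no test and no p-value. Intervals in brackets after ratios are 95% intervals for counting error only.

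H3K36me2 covers broad euchromatic domains and is laid down largely by methyltransferases of the NSD family, while H3K27me3 is laid down by Polycomb repressive complex 2, which works poorly on histone tails already methylated at lysine 36. K36M histone inhibits lysine 36 methyltransferases. In female mammals one X is silenced in each cell and accumulates H3K27me3 over much of its length, whereas the active X carries marks of transcribed chromatin. A bin value pools all cells and all copies of a chromosome, so marks on the same nucleosome and marks on different copies cannot be told apart.

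Recovered read totals over all bins ran from 29115433 to 57939301 per library. The median chosen bin rested on 234 reads in WT and 94 in K36M for H3K36me2, and on 241 in WT and 194 in K36M for H3K27me3. Input libraries were not used here, and the number of X copies in the lines is not given in the labels. More copies of X and more mark per copy can therefore not be told apart in any level below.

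The first question was what state these domains were in within the WT line. H3K36me2-rich bins on X carried much more H3K27me3 in WT than H3K36me2-rich bins elsewhere. Their median was 26.3 scaled reads per bin (interquartile range 16.9 to 35.1), against 6.32 (2.94 to 15.3) in the 129122 autosomal bins passing the same threshold, a ratio of 4.16. By means the ratio was smaller, 2.15, from 27.2 on X and 12.7 on autosomes. The upper ends were closer still, with 95th percentiles of 52.1 on X and 44.6 on autosomes. The highest single autosomal bin held 22936. No autosome came near the X median: the medians of such bins on the 19 autosomes ran from 4.80 on chromosome 5 to 7.63 on chromosome 18. Of the X bins, 96.8% lay above the all-bin WT median of 5.89 and 76.7% at or above the 75th percentile of all bins (16.1). These shares were 52.4% and 23.7% for the autosomal bins at the same threshold. A factor per library cancels in comparisons within 1 library, so these do not depend on the scaling.

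The other bins of X had less H3K27me3 in WT, with a median of 11.9 (5.45 to 24.4), so the chosen bins stood 2.21-fold above them. When all X bins were ordered by WT H3K36me2, the median H3K27me3 in WT climbed from 1.96 in the lowest decile to 29.0 in decile 7, and then stayed at 26.4, 26.4 and 25.8 in deciles 8 to 10. The lowest X deciles were low in all 4 libraries: decile 1 had medians of 6.36 and 1.09 for H3K36me2 and of 1.96 and 5.90 for H3K27me3, in WT and K36M. The increase of H3K27me3 over the lower deciles therefore cannot be told apart from a gradient of overall signal. On autosomes the same ordering gave a rise to 15.8 in decile 4 and a fall to 5.67 in decile 10. The decile limits differ between X and autosomes, because X holds less H3K36me2: decile 10 began at 184 scaled reads on X and at 348 on autosomes.

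**Figure D1:**
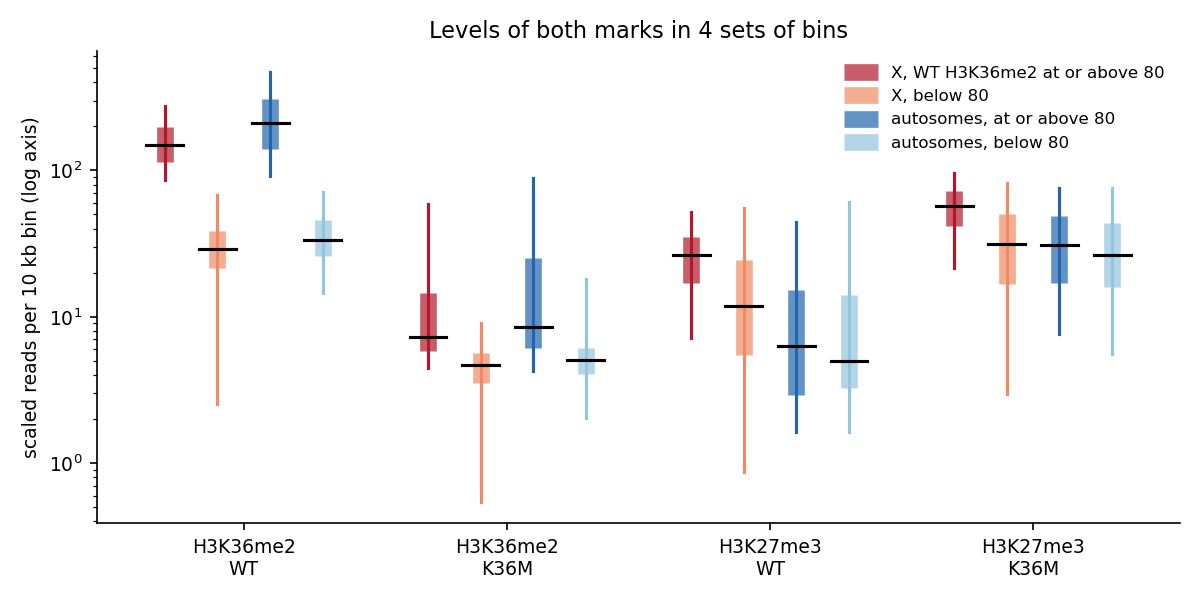
Scaled reads per 10 kb bin (log axis) in each of the 4 libraries for H3K36me2-rich bins of X (dark red), other X bins (orange), autosomal bins at the same threshold (dark blue) and other autosomal bins (light blue). Thick bars span the 25th to 75th percentile of bins, thin lines the 5th to 95th, and black lines are medians. H3K27me3 in the chosen X bins, with medians of 26.3 in WT and 57.2 in K36M, lies above the medians of the other sets in both lines.

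The threshold cut through a continuous range. The 207 X bins just inside it, from 80.1 to 84.6 scaled reads of WT H3K36me2, had a median WT H3K27me3 of 27.8. The 213 bins just outside, from 75.0 to 79.5, had one of 29.1. Within the chosen set, WT H3K36me2 had a median of 149 (interquartile range 114 to 197), below the 211 of the autosomal bins at the same threshold. The highest bin, at 139910001 to 139920000 (mm9), stood far from the rest. Its H3K36me2 was 10345 in WT and 420 in K36M, and its H3K27me3 was 199 in WT and 594 in K36M. It was thus high in all 4 libraries, and it alone held 1.24% of the WT H3K36me2 of the set.

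H3K36me2 and H3K27me3 were hardly ordered against each other within the chosen bins. Spearman's rho between the marks in WT was -0.06 across the 5060 bins, compared with 0.71 across the 10479 other X bins, where all pairs of libraries examined gave 0.63 to 0.94. Bins share a library and their neighbours: rho between adjacent chosen bins was 0.80 for WT H3K27me3 and 0.66 for WT H3K36me2. These coefficients are descriptions of 1 library each.

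The second question was how these domains differed in the line expressing K36M histone. Mean H3K36me2 per bin was 164 scaled reads in WT and 15.7 in K36M, 10.5-fold lower (10.4 to 10.5), and the median was 149 in WT and 7.33 in K36M. H3K27me3 was higher still than its high start: the mean was 27.2 in WT and 58.0 in K36M, a ratio of 2.13 (2.12 to 2.14), and the K36M median was 57.2 (interquartile range 41.9 to 72.9). K36M values were below WT for H3K36me2 in all but 22 of the bins and above WT for H3K27me3 in all but 55. The 22 were 0.435% of the set, against 2.18% of all bins and 1.59% of autosomal bins at the same threshold. The choice of bins by high WT H3K36me2 favours a low share here. The 55 were 1.09% of the set, against 5.27% of all bins and 3.96% of those autosomal bins.

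By fold, the gain of H3K27me3 was smaller on X than on autosomes. The ratio of means was 2.13 on X and 2.82 (2.819 to 2.823) in autosomal bins at the same threshold, where the 19 autosomes ranged from 2.27 on chromosome 17 to 3.25 on chromosome 16. By medians the contrast was wider, at 2.18 on X against 4.06 to 5.94 over the autosomes. In the other X bins the ratio was 2.03 by means and 2.63 by medians, so a low fold gain was not particular to the chosen bins. By size, in scaled reads, the gain was larger on X: the median bin gained 29.6 (interquartile range 19.7 to 40.4) on X and 18.8 (9.36 to 32.5) on autosomes. With the deposited factors, the fold and the size of the gain thus order X and autosomes differently. The level reached in K36M was 1.85 times the autosomal median of 30.98, down from 4.16 times in WT.

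Each bin was also judged by the size of its change, with 1.64 scaled reads (the 5th percentile of non-zero WT values) added to both lines before the log2 ratio was taken, and a limit of 2-fold. By this rule H3K27me3 was higher in 2864 of the 5060 bins (56.6%). The same rule was passed by 72.5% of all bins, by 75.2% of autosomal bins at the same threshold and by 61.6% of the other X bins, so the share on X was below its background. Over the 19 autosomes the share of H3K36me2-rich bins that passed ran from 70.2% to 81.9%. Gains of at least 4-fold were found in 301 of the X bins (5.95%), against 34.1% of all bins and 38.1% of the autosomal bins at the same threshold. H3K27me3 was lower by at least 2-fold in 2 of the X bins, against 0.123% of all bins. The median X bin changed 2.17-fold, close to the limit of 2-fold, and the count of higher bins depends on that limit: 4463 passed at 1.5-fold. No share of all bins is given at 1.5-fold, so that count has no background.

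With 19.7 scaled reads added to both lines, H3K36me2 was past the 2-fold limit downwards in 4687 of the X bins (92.6%), against 75.1% of all bins and 90.3% of autosomal bins at the same threshold. The choice of bins by high WT H3K36me2 favours such falls, and nothing is read from this count.

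The size of both shifts rests on the deposited library factors. With libraries brought to equal totals instead, the median log2 ratio over all bins moved for H3K36me2 from -1.62 to 0.04, and for H3K27me3 from 1.60 to 0.46. The H3K27me3 ratio of the X bins then turned to 0.847, while that of autosomal bins at the same threshold was 1.12. The mean thus fell on X and rose on autosomes, so the larger gain on X in scaled reads also rests on the factors. On that scale 177 X bins (3.50%) were at least 2-fold higher in H3K27me3 and 139 (2.75%) lower, in place of 2864 and 2. The shares were 26.7% and 8.32% for all bins, and 30.7% and 6.91% for autosomal bins at the same threshold. Relative to the median of all bins, the median log2 ratio of H3K27me3 in the chosen X bins was -0.53 with the factors and -0.66 with library totals. In the other X bins it was -0.47 and -0.48. The place of X below the genome in fold gain was thus found under both scalings, in a comparison where the factor largely cancels, whereas the direction of the change itself was not.

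X and autosomes differ in WT H3K36me2, so H3K27me3 was set side by side within 4 classes of that level. In WT the X median exceeded the autosomal one 2.63-fold at 80 to 120 scaled reads of H3K36me2, 3.69-fold at 120 to 200, 4.12-fold at 200 to 300 and 3.59-fold at 300 and above. In the lowest class the medians were 26.9 on X and 10.2 on autosomes, and in the highest 21.1 and 5.89. Across the 4 classes the X median varied little, between 21.1 and 26.9. In K36M the excess shrank to 2.31-fold, 2.49-fold, 2.18-fold and 1.5-fold.

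The gain of H3K27me3 grew with the WT level of H3K36me2 on X as it did on autosomes, but over a narrower range. The ratio of means on X was 1.78 (1.776 to 1.793) in the lowest class, 2.10 and 2.63 in the middle ones and 3.28 (3.23 to 3.33) in the 131 bins of the highest. On autosomes the ratios were 1.45, 2.04, 3.35 and 5.86. By means X was therefore 1.23-fold above the autosomes in the lowest class, 1.03-fold above in the next, and below them in the upper 2 classes. By medians the gain was smaller on X in every class, since its excess over the autosomal median shrank in each, as given above. The classes were also filled differently, with 2.59% of the X bins but 26.5% of the autosomal bins in the highest. The share of bins passing the 2-fold rule was lower on X in each class, at 36.03% against 47.0% in the lowest and 88.5% against 96.2% in the highest. In scaled reads as deposited, the median gain on X ran from 22.2 in the lowest class to 47.3 in the highest, and on autosomes from 7.57 to 36.6.

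**Figure D2:**
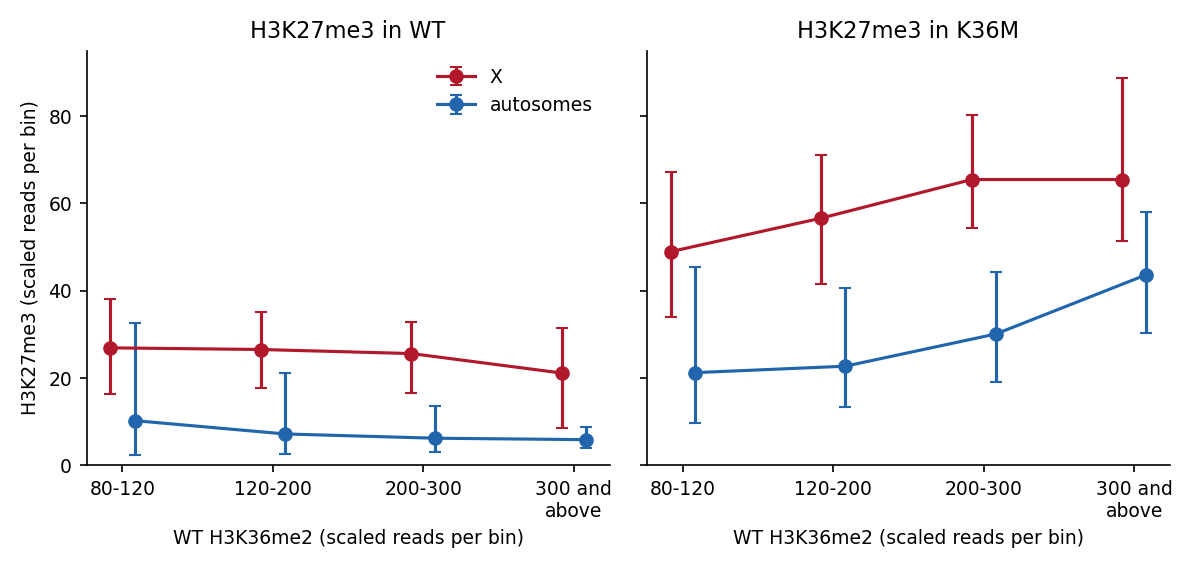
Median H3K27me3 (scaled reads per bin) in WT (left) and K36M (right) by class of WT H3K36me2, for X (red) and autosomes (blue). Bars span the 25th to 75th percentile of bins. In WT the X medians lie between 21.1 and 26.9 and the autosomal ones between 5.89 and 10.2, while in K36M both increase with WT H3K36me2.

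Some bins kept H3K36me2 in the presence of K36M histone, and here X differed from the autosomes in the other mark. A K36M level at or above the 90th percentile of all bins (45.3 scaled reads) was found in 416 of the X bins (8.22%), against 15.8% of autosomal bins at the same threshold and 9.66% to 21.96% over the 19 autosomes. On autosomes, bins with such residual H3K36me2 were low in H3K27me3, with medians of 2.29 in WT and 11.2 in K36M. The 416 X bins had medians of 21.0 in WT and 43.8 in K36M. The other 4644 X bins, with little residual H3K36me2, had 26.7 and 58.7.

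The same was seen over the whole range of residual H3K36me2. With bins split into quintiles by K36M H3K36me2, median WT H3K27me3 on X was 22.3, 29.5, 29.3, 26.5 and 23.7 from the lowest quintile to the highest. On autosomes it was 10.7, 14.3, 9.59, 3.71 and 2.29. Across bins, Spearman's rho between K36M H3K36me2 and WT H3K27me3 was -0.01 on X and -0.62 on autosomes, with a range of -0.77 to -0.55 over the 19 autosomes. Between the marks in K36M it was 0.01 on X and -0.59 to -0.13 over the autosomes. The 2 libraries behind each coefficient are the same for X and autosomes.

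**Figure D3:**
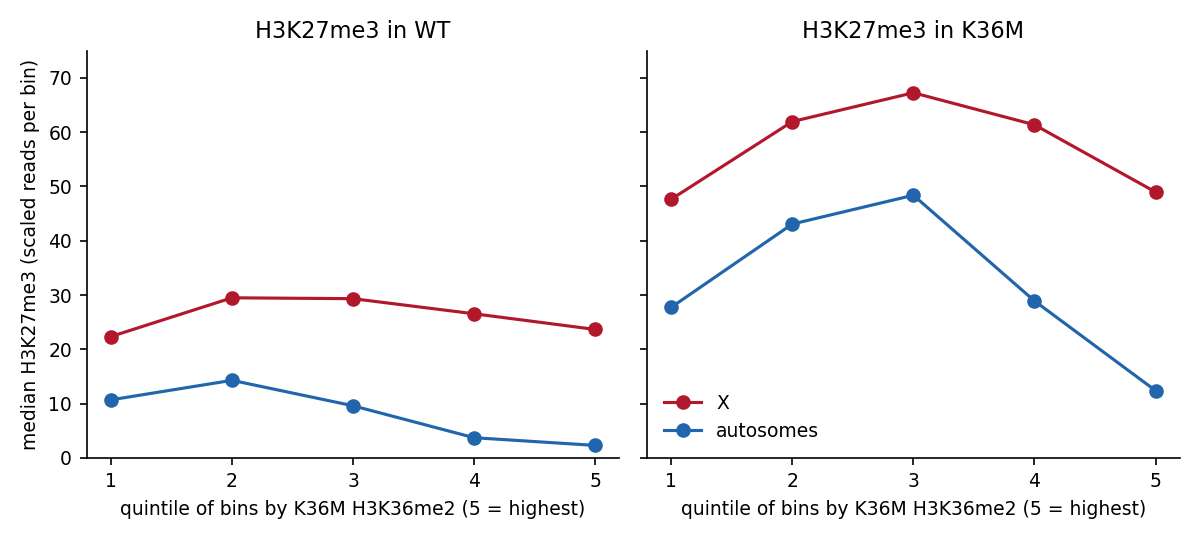
Median H3K27me3 (scaled reads per bin) in WT (left) and K36M (right) for quintiles of the H3K36me2-rich bins ordered by the H3K36me2 left in K36M, on X (red) and autosomes (blue). In WT the X medians stay between 22.3 and 29.5, and the autosomal ones drop to 2.29 in the highest quintile.

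The X bins formed domains. They fell into 659 runs of adjacent bins, of which 175 were single bins and 274 spanned at least 50 kb. These 274 runs held 4316 bins (85.3%) and had a median length of 110 kb. Autosomal runs of at least 50 kb held 91.5% of their bins, with a median of 140 kb and a longest run of 2590 kb, against 800 kb on X. Runs are broken by intervals wider than 10 kb, which were left out, and 69 of the 274 runs touched one. No mouse gene annotation or mouse genome was used here, so domains are named by position in mm9, with 1-based coordinates, and without genes or sequence.

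The longest domains differed widely in H3K27me3, although all 6 were rich in H3K36me2. The longest, at 16270001 to 17070000, was 800 kb long. Its mean H3K27me3 was 28.4 in WT and 54.1 in K36M, 1.90 times as high (1.86 to 1.94). Its H3K36me2 went from 199 to 5.77. The domain at 18300001 to 19010000 went from 25.8 to 68.1 for H3K27me3 and kept more H3K36me2, from 216 to 22.0. The domains at 12900001 to 13520000 and 19620001 to 20170000 went from 38.5 to 70.0 and from 27.4 to 64.1 for H3K27me3. Their ratios were 1.82 and 2.34, against 2.13 for the set as a whole. The WT mean of the domain at 12900001 lay above the 75th percentile of the chosen bins, 35.1.

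The remaining long domains, both in the distal part of the chromosome, stood apart in opposite ways. At 163880001 to 164520000, a stretch of 640 kb, H3K27me3 rose little, from 16.8 to 24.3 with a ratio of 1.45 (1.401 to 1.498), while H3K36me2 went from 149 to 5.45. At 165730001 to 166300000, 570 kb long, H3K27me3 started at 5.63, an autosome-like level, and reached 48.6 in K36M, a ratio of 8.63 (8.283 to 9.002). H3K36me2 there was high in WT, at 357, and 13.2 in K36M.

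Gains of H3K27me3 across the 274 domains ranged from a ratio of 0.938 to one of 9.90, with a median of 2.16 (interquartile range 1.88 to 2.63). The largest was at 153390001 to 153590000, where 20 bins went from 8.10 to 80.2, a ratio of 9.90 (9.34 to 10.5). Its WT bins lay between 5.23 and 12.3 and its K36M bins between 43.1 and 122. The domain was picked for its ratio, which favours such a separation, and adjacent bins are not replicates. The domain at 153610001 to 153700000, across a gap of 2 bins, rose 7.76-fold, from 8.76 to 67.9. With the distal domain described above, these were the 3 largest ratios, and each began from WT H3K27me3 below 9 scaled reads, a low start that a ranking by ratio favours.

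The smallest ratio, 0.938 (0.873 to 1.01), was at 91350001 to 91440000. There H3K27me3 was 35.5 in WT and 33.3 in K36M, a difference within counting error, while H3K36me2 went from 206 to 37.4. The domains at 158270001 to 158330000 and 17530001 to 17600000 had ratios of 1.10 (1.00 to 1.21) and 1.19 (1.10 to 1.29), from WT levels of 28.9 and 32.5. In all 3 the WT and K36M ranges of H3K27me3 over bins overlapped, which a choice by small ratio favours.

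**Figure D4:**
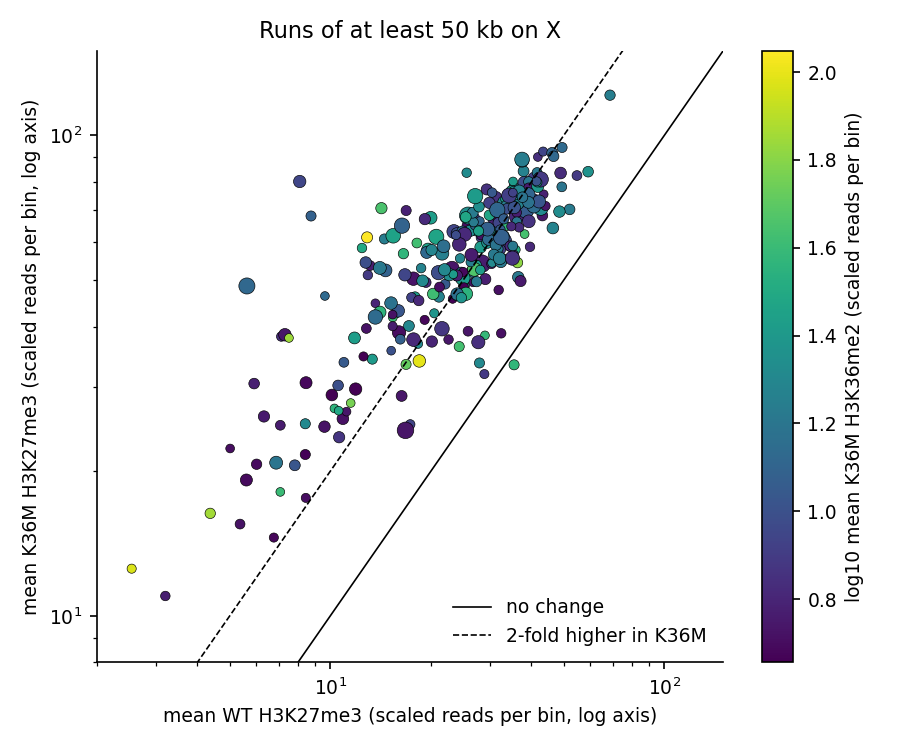
Mean H3K27me3 per bin in K36M against WT (both log axes, scaled reads) for the 274 runs of at least 50 kb on X, with point area growing with length and colour giving the H3K36me2 left in K36M. The solid line marks no change and the dashed line a 2-fold rise. Most runs lie near the 2-fold line, with a median ratio of 2.16, and those with the lowest WT H3K27me3 lie above it.

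The domains richest in H3K27me3 in WT were at 67610001 to 67710000, 91610001 to 91720000 and 48480001 to 48560000. Their means were 68.8, 59.1 and 54.8 scaled reads in WT and 121, 84.0 and 82.5 in K36M. H3K36me2 in these 3 went from 118 to 17.7, from 125 to 23.3 and from 104 to 7.79. These H3K36me2 levels in WT lay below the median of 149 of the chosen bins.

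Domains on X with WT H3K27me3 below the middle of the genome's range were few. In 7 of the 274 (2.55%) the mean was below the all-bin median of 5.89, as it was in 26.3% of the 5611 autosomal domains. The lowest was at 17810001 to 17870000, with 2.54 in WT and 12.5 in K36M. It also kept most of its H3K36me2, at 110 in WT and 93.4 in K36M, 1.18-fold lower (1.11 to 1.26). The domain at 102230001 to 102330000 was alike: H3K27me3 went from 4.37 to 16.3 and H3K36me2 from 122 to 71.8, 1.70-fold lower (1.62 to 1.78). The other 5, named here after their values were seen except for 2, kept little H3K36me2. They were at 123750001 to 123800000, 152510001 to 152690000 and 152810001 to 152890000, with H3K36me2 of 4.92 to 5.31 in K36M, and the distal domains at 165730001 to 166300000 and 166570001 to 166640000. In the last of these, H3K27me3 was 3.21 in WT and 10.999 in K36M, and H3K36me2 went from 271 to 5.89.

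Residual H3K36me2 was highest in 3 domains. At 166320001 to 166450000 it was 112 in K36M against 495 in WT, with single WT bins of up to 1331. H3K27me3 there went from 12.9 to 61.3. At 156160001 to 156370000, H3K36me2 was 150 in WT and 97.8 in K36M, 1.53-fold lower (1.49 to 1.58), and H3K27me3 was 18.5 and 33.9. The other was the domain at 17810001 to 17870000, described above.

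The 22 bins whose H3K36me2 was not lower in K36M lay in 15 stretches, and H3K27me3 there moved either way. In 12 of them H3K27me3 was also lower in K36M, with medians of 18.9 in WT and 10.5 in K36M. These 12 made up 54.5% of the 22 bins and 21.8% of the 55 bins with lower H3K27me3. No such overlap is given for all bins, so these shares have no background and nothing is read from them. In the other 10, H3K27me3 was higher in K36M, with medians of 2.34 in WT and 10.6 in K36M. WT levels among these 10 were not all low: the bins at 106350001 to 106360000 and 160350001 to 160360000 had 14.3 and 13.4 in WT and 33.0 and 40.7 in K36M. Of the 12 bins lower in H3K27me3, 2 formed a stretch at 18720001 to 18740000, inside the domain of 710 kb. H3K36me2 there went from 131 to 203 while H3K27me3 went from 16.5 to 9.44. Another stretch of this kind was at 65750001 to 65770000, where H3K36me2 was 141 in WT and 184 in K36M and H3K27me3 was 18.4 and 13.1.

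Of the other bins of this kind, 1 lay at 65780001 to 65790000 and 7 lay between 156280001 and 156400000. They included both bins in which H3K27me3 was lower by at least 2-fold. At 156390001 to 156400000, H3K27me3 went from 22.6 to 7.08 (207 reads and 24) and H3K36me2 went from 113 to 136. At 156300001 to 156310000, H3K27me3 went from 20.4 to 7.67 (187 reads and 26) and H3K36me2 went from 125 to 164. The 10 bins with higher H3K27me3 included 17820001 to 17850000, where H3K36me2 went from 95.4 to 117 and H3K27me3 from 2.11 to 12.5. They also included 2 bins within the low-H3K27me3 domain at 102230001 to 102330000.

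At the ends of domains, H3K36me2 in WT dropped from a median of 121 in the first bin inside to 64.9 in the first bin outside, a step that the threshold itself makes. H3K27me3 in WT showed little step on X: it was 25.1 just inside, 21.5 just outside and 38.5 at 45 kb outside. On autosomes it was 6.65 just inside, 6.10 just outside and 27.3 at 45 kb outside. There the mark was far lower within H3K36me2 domains than in the bins at 45 kb outside. It was not lower than in autosomal bins below the threshold as a whole, by medians of 6.32 at or above it and 5.01 below. In K36M, H3K27me3 on X had 51.5 just inside, 37.8 just outside and 54.6 at 45 kb, and deep inside, at 95 kb, it had 60.3. The interior thus reached or passed the flanks in K36M on X, whereas on autosomes the interior at 95 kb, at 32.2, stayed below the flanks at 45 kb outside, at 43.1. Outside bins were followed only up to the next H3K36me2-rich bin or wide interval. Their number therefore dropped from 473 at the first position to 77 at 45 kb on X, and from 8473 to 1238 on autosomes. The far positions outside come from wide gaps between domains. Inside, the number dropped from 548 at the first position to 140 at 95 kb on X, and from 11222 to 3940 on autosomes. The deep positions come from long domains, so a change with depth and a difference between domains cannot be told apart.

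**Figure D5:**
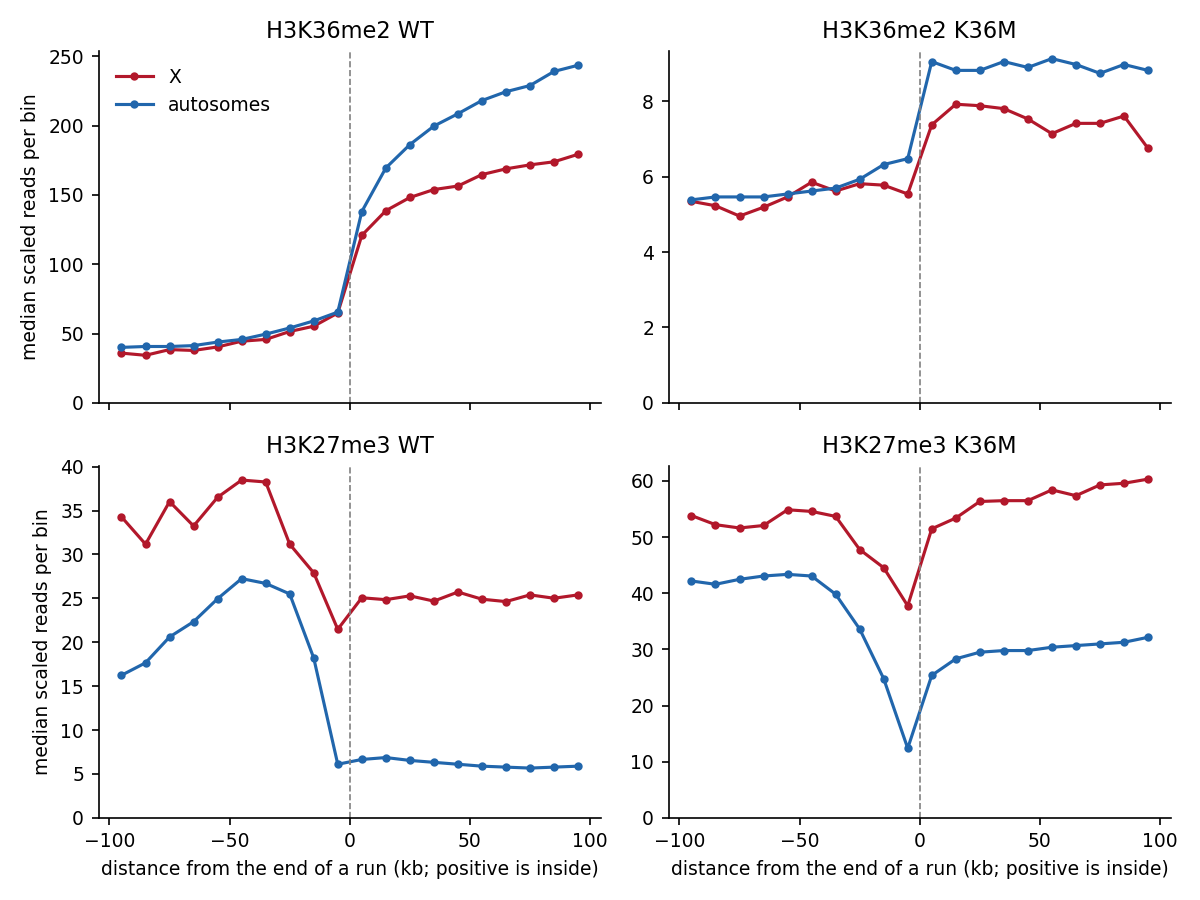
Median scaled reads per bin by distance from the ends of runs of at least 50 kb (positive is inside) for each of the 4 libraries, on X (red) and autosomes (blue). In WT, H3K27me3 inside is 24.6 to 25.7 on X and 5.67 to 6.87 on autosomes. In K36M the X interior is at 60.3 at 95 kb, a position that only the longer runs reach.

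Along the chromosome the bins were unevenly spread, and their H3K27me3 followed the region. They made up 66.4% of the X bins between 10 and 20 Mb, 62.1% between 90 and 100 Mb and 64.4% beyond 160 Mb, but 8.41% between 20 and 30 Mb and 1.14% (11 of 965) between 110 and 120 Mb. Median WT H3K27me3 in the chosen bins was highest between 40 and 50 Mb, at 36.7, and reached 72.3 in K36M. It was lowest in the 11 bins between 110 and 120 Mb, at 7.96, and was 12.9 between 80 and 90 Mb, 8.83 between 120 and 130 Mb, 13.2 between 150 and 160 Mb and 15.1 beyond 160 Mb. K36M levels were 23.6 between 110 and 120 Mb and 33.6, 25.7, 38.1 and 47.2 in the other 4 windows. The ratio of means over windows ran from 1.87 between 40 and 50 Mb to 3.00 between 120 and 130 Mb.

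The last 1 Mb of X, from 165640001 to 166640000, stood apart from the rest, a window set after the values were seen. Its 88 chosen bins had a median WT H3K27me3 of 5.50, against 26.5 in the other 4972. Their WT H3K36me2 was high, at 299 against 148. In K36M they had medians of 49.7 for H3K27me3 and 10.96 for H3K36me2, so that the ratio of H3K27me3 medians was 9.03 there and 2.17 elsewhere. The ratio of means was 4.66 there and 2.11 elsewhere. The pseudoautosomal region of the mouse, which X shares with Y, lies at this end of the chromosome. Its limits were not used here.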

How the data were processed

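Chromatin immunoprecipitation libraries of 2 cell lines were analysed from 1 deposited table. Per the labels' protocols, micrococcal nuclease was used to make mononucleosomes, and fly S2 chromatin equal to 5% of that of the mouse cells was mixed in. Another label states equal mixing of cells, and which holds is not settled. The builds mm9 and dm6 were used with Bowtie 1.0.0, per the submitters' processing notes. How reads were counted and duplicates handled is not given in the sources used. The deposited signal is reads per interval multiplied by 1 factor per library. Every value (100%) divided to a whole number, with a tolerance of 0.01 reads, by 0.636, 0.078, 0.109 and 0.295 (H3K36me2 WT and K36M, H3K27me3 WT and K36M), which gave back the reads. The factor is taken to be the spike-in scaling.

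Intervals of exactly 10 kb with signal in at least 1 library were kept. On X, 311 wider intervals and 15 bins without signal were left out. A bin at the median read number has a 95% counting error of -12.4% to 13.7% for H3K36me2 WT, -19.2% to 22.4% for H3K36me2 K36M, -12.2% to 13.5% for H3K27me3 WT and -13.6% to 15.1% for H3K27me3 K36M (exact Poisson). No molecular identifiers were used, so reads need not be independent molecules. Ratios given with intervals are of summed scaled reads, with exact (Clopper-Pearson) intervals from the split of reads between the 2 libraries. A count test on recovered reads was not run, because 1 library per group leaves no residual degrees of freedom. Per-bin changes used a pseudocount (the 5th percentile of non-zero WT values, 19.7 for H3K36me2 and 1.64 for H3K27me3) and no filter on low values, and the pseudocount understates changes of low bins. Runs are adjacent chosen bins without a gap. The runs named are the 6 longest and, among those of at least 50 kb, the 3 at each end of the H3K27me3 ratio and of WT H3K27me3, and the 3 with most K36M H3K36me2. Also named are up to 6 bins with lower H3K27me3 or with H3K36me2 not lower. Bins and lists were chosen with earlier results of these data known. Scripts were tested on simulated data. The software was scipy 1.17.1, numpy 2.4.6 and pandas 2.3.3 under Python 3.11.15, with figures by matplotlib 3.10.9.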

Additional observations from a re-analysis of the deposited data

Results flagged for a closer look

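Signal was also present in X sequence that the mm9 build leaves unplaced, which the comparisons above did not use. Of its 112 bins of 10 kb, 29 had WT H3K36me2 of at least 80 scaled reads. Their median H3K36me2 was 119 in WT and 14.9 in K36M, and their median H3K27me3 was 5.995 in WT and 18.3 in K36M. The WT H3K27me3 level there was below the 26.3 of the chosen X bins, a difference that was not tested.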

How the results depend on the processing

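No paired analysis was possible because each group had 1 library, and no replicate could be left out. Leaving out the last 1 Mb of X was chosen after seeing the data, and all other alternatives were planned. In all, 8 results were recomputed to give 54 further values. Of these, 12 stayed within counting error, or within 1.5-fold of a count, 41 moved further and 1 reversed. For ratios of medians, the interval of the summed reads was centred on the ratio of medians, so it is only a stand-in for their counting error. Only 6 moved by over 1.5 times. The reversal was the H3K27me3 ratio of K36M over WT, 0.847 with library totals against 2.13. With library totals the H3K36me2 ratio was 0.902. The count of bins with H3K27me3 at least 2-fold higher was then 177 (3.50%, against 26.7% of all bins). With the deposited factors and a limit of 1.5-fold that count was 4463, for which no share of all bins is given.

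In the order H3K27me3 ratio, H3K36me2 ratio, WT H3K27me3 over other X bins, then WT H3K27me3, K36M H3K27me3 and K36M H3K36me2 over autosomal bins at the same threshold, the reported values were 2.13, 0.0955, 2.21, 4.16, 1.85 and 0.862. Medians in place of means gave 2.18 and 0.0493 for the first pair, and means in place of medians gave 1.54, 2.15, 1.63 and 0.691 for the rest. A threshold of 60 gave 2.04, 0.107, 2.49, 3.94, 1.82 and 0.867. A threshold of 120 gave 2.29, 0.0726, 1.91, 4.27, 1.85 and 0.865. Runs of at least 5 bins gave 2.18, 0.0901, 2.17, 4.21, 1.86 and 0.864. Background subtraction, by the 5th percentile per library, gave 2.01, 0.0893, 2.40, 5.26, 2.07 and 0.797. Without the top 1% of bins by reads they were 2.14, 0.0905, 2.21, 4.08, 1.83 and 0.870. Without the last 1 Mb they were 2.11, 0.0965, 2.23, 4.19, 1.85 and 0.862. The cause of these shifts was not tested. By the median chosen bin, depth was lowest for H3K36me2 in K36M, at 94 reads. The fewest reads in a chosen bin were 126 in WT and 14 in K36M for H3K36me2. For H3K27me3 they were 11 in WT and 7 in K36M.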
